A study of Homo sapiens with 2 samples.

Results

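Genes for motor proteins, tubulins, spectrins and centrosomal proteins were followed in a list of RNA regions recovered with a PTBP1 antibody from MKN-28, an established cell line from gastric cancer. The rule took members by gene symbol, and no measured value entered it. They were the kinesins and kinesin light chains (KIF and KLC symbols), myosins (MYO and MYH), dyneins and dynactin (DNAH, DYNC and DCTN), tubulins and the gamma-tubulin complex (TUB), numbered CEP symbols, MAP1 and CKAP symbols, and spectrins (SPTA and SPTB). Of the 5186 genes in the mRNA list, 61 were members, and 121 of the 8479 peaks were named for them.

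Extracts of untreated MKN-28 cells went through RNA immunoprecipitation and sequencing (RIP-seq), once with an antibody against PTBP1 and once with normal rabbit IgG as the negative control. Each antibody gave 1 library, so there was no replicate check, no test was run, and 95% Wilson intervals cover counting error only. A peak is a region with more tags (aligned reads) in the PTBP1 library than in the IgG library, as the authors called it, and its fold enrichment, tag count, false discovery rate and annotation class are the authors' values on the hg19 build. The depth of each library is unknown, the deposited values do not say which library a tag count came from, and no RNA level outside peaks was measured, so neither the expression of a gene nor the markers of the cell line could be checked.

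Kinesins and dyneins are motors that walk along microtubules, the hollow polymers of alpha- and beta-tubulin, and myosins are motors that walk along actin filaments. The gamma-tubulin complex starts new microtubules, mostly at the centrosome, a pair of centrioles in a protein matrix that organises the spindle and forms the base of the cilium. Spectrins build the mesh under the plasma membrane. PTBP1 is an RNA-binding protein that prefers pyrimidine-rich stretches such as UCUU and acts on splicing, stability and translation.

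The RNA of 3 members had a peak that ran across the listed transcription start, and the sequence around these starts is shown because the RefSeq sequence there spans the start and part of the peak. KIF23 is a kinesin of the central spindle, KIF2A is a kinesin that takes microtubules apart at their ends, and CEP126 is a centrosomal protein of the pericentriolar matrix and cilium. The KIF23 peak ran from 346 bases before the start to 281 after it (8 tags, 8.19-fold), and it also overlapped LOC145694 and was named for it. The KIF2A peak ran from 26 before to 333 after (25 tags, 4.27-fold). The CEP126 peak ran from 5 before to 645 after (27 tags, 3.68-fold), and it also overlapped ANGPTL5 and was named for that gene. Each line below gives 250 bases before the start and 50 after it on the gene's strand, from RefSeq on GRCh38.p14. KIF23 is at chr15:69414099-69414398, KIF2A at chr5:62305956-62306255 and CEP126 at chr11:101914760-101915059, all on the plus strand. Capitals mark TCTT, the DNA form of the PTBP1 motif UCUU.
KIF23: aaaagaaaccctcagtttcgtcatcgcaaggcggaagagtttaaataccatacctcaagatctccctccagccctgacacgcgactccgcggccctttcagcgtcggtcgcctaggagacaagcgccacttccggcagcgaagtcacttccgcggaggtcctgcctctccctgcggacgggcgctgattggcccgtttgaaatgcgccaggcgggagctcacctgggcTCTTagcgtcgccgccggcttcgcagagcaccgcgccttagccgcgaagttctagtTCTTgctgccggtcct
KIF2A: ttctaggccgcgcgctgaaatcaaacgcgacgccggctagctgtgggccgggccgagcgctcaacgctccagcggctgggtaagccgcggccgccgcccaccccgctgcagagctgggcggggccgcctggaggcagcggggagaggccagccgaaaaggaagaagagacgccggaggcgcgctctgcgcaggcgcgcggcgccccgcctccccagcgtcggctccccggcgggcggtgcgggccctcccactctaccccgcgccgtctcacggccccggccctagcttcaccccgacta
CEP126: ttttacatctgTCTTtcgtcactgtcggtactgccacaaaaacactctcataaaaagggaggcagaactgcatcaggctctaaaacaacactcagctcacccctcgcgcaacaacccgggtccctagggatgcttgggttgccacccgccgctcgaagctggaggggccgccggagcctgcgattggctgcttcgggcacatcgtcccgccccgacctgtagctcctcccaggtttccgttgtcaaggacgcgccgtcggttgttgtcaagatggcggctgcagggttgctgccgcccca
In these letters KIF23 held 2 copies of TCTT, of which 1 lay after the start and so in the transcribed part. KIF2A held 0 copies. CEP126 held 1, before the start and further from it than the 5 bases that its peak covered there. On the other strand KIF23 held 3 copies, KIF2A 2 and CEP126 1. The starts used for peaks (hg19) and for sequences (GRCh38.p14) were not aligned base by base. Over 70 promoters of the 52 members that matched the RefSeq table, 40 (57.1%) held TCTT on the gene's strand, against 61.7% of all 35116 promoters, and CTCTCT was in 15.7% of member promoters against 12.7% of all. Counted on either strand, these shares were 75.7% for TCTT and 17.1% for CTCTCT in member promoters, and 82.4% and 24.4% in all promoters.

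The first question was how many genes of these families had a peak. The same symbol pattern took 196 protein-coding genes in RefSeq, and 61 of them had a peak (31.1%, 95% interval 25.1 to 37.9), beside 25.6% of all 20052 protein-coding genes. Overlap with the gene's own transcript meant at least 1 base between the start and end listed with that peak. Such a peak was found for 44 (22.4%, 17.2 to 28.8), beside 17.9% of all. In this count under current symbols KIF1BP, now KIFBP and not a motor itself, drops out, and FGFR1OP, now CEP43, comes in. Other shares of protein-coding genes, by role, subfamily or partner list and under other thresholds, also use current symbols. All the remaining values are for the 61 members as the list names them. The intervals of the family include the share of all genes for any peak and for an overlapping peak.

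By role, numbered CEP genes had the highest share among the larger groups, with 16 of 39 (41.0%, 27.1 to 56.6). Dyneins and dynactin followed with 9 of 28 (32.1%, 17.9 to 50.7), tubulins and the gamma-tubulin complex with 9 of 29 (31.0%, 17.3 to 49.2) and kinesins with their light chains with 14 of 46 (30.4%, 19.1 to 44.8). Myosins had 9 of 40 (22.5%, 12.3 to 37.5). With overlap asked for, CEP genes had 13 of 39 (33.3%, 20.6 to 49) and myosins 4 of 40 (10%, 3.96 to 23.1). The remaining groups were small, with 3 of 7 spectrins and 1 of 7 MAP1 and CKAP genes. The intervals of all these roles overlap each other, so their order is not settled by counting error alone.

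**Figure D1:**
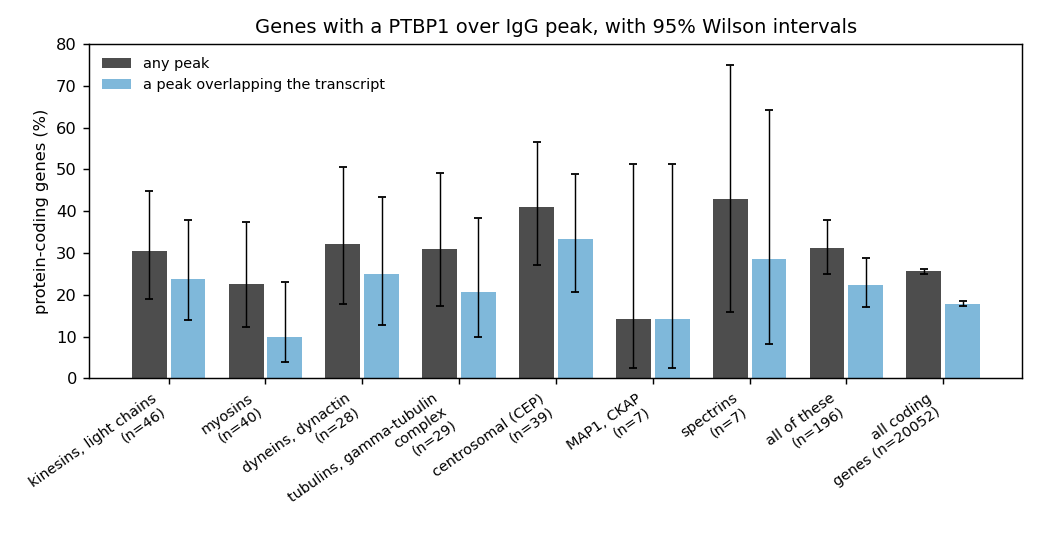
Share of protein-coding genes (%) with any peak (dark bars) and with a peak that overlaps the transcript (light bars), for each role, for all 196 genes of the pattern and for all 20052 protein-coding genes. Lines are 95% Wilson intervals. CEP genes stand at 41.0% and 33.3% and myosins at 22.5% and 10%.

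Among the 61 members, 43 (70.5%, 58.1 to 80.4) had an overlapping peak, beside 69.6% of all genes in the mRNA list. The best peak reached a fold of at least 10 in 22 members (36.1%, 25.2 to 48.6), beside 32.9% of all. A peak of at least 20 tags was present in 27 members (44.3%, 32.5 to 56.7), beside 47.1% of all. The number of peaks per gene differed more: 17 members (27.9%, 18.2 to 40.2) had at least 3 peaks, beside 16% of all, another 17 had 2 and 27 had 1. Members averaged 1.98 peaks per gene and the whole list 1.70, while the listed transcripts of members were longer (median of the longest transcript 45414 bases, against 29922.5 over the list). Within transcripts of 20000 to 50000 bases the averages were 2 peaks for 25 members and 1.65 for all. At 100000 bases or more they were 2.29 for 17 members and 2.12 for all, so the gap was smaller there, and below 20000 bases it turned round, with 1.33 for 9 members and 1.48 for all.

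Enrichment was near that of the list as a whole. Taking the best fold of each gene, the median was 9.20 in members (quartiles 6.52 and 11.04) and 7.96 in the list (quartiles 5.69 and 11.04). Per peak the medians were 7.33 in members and 7.08 in the list, and member folds ran from 2.95 to 19.49, against 1.80 to 40.49 in the list. Member peaks held fewer tags, with a median of 10 against 13. Peaks of fewer than 20 tags made up 89 of 121 (73.6%) in members and 63.4% in the list. A high fold came almost always with few tags, as 25 of the 26 member peaks at a fold of at least 10 held fewer than 20 tags and the other held 20. The same values recurred, for 12 member peaks (9.92%) had a fold of exactly 11.04 with 6 to 9 tags and 8 (6.61%) had exactly 9.20 with 6 to 12, beside 6.88% and 3.27% of all peaks. Spearman's rho between tags and fold was -0.44 over the 121 member peaks and -0.50 over the list, as a description of peaks called from 1 pair of libraries. The false discovery rate of member peaks ran from 43.13% to 100% (median 45.12%, against 44.97% over the list), so no member peak was at a low rate.

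**Figure D2:**
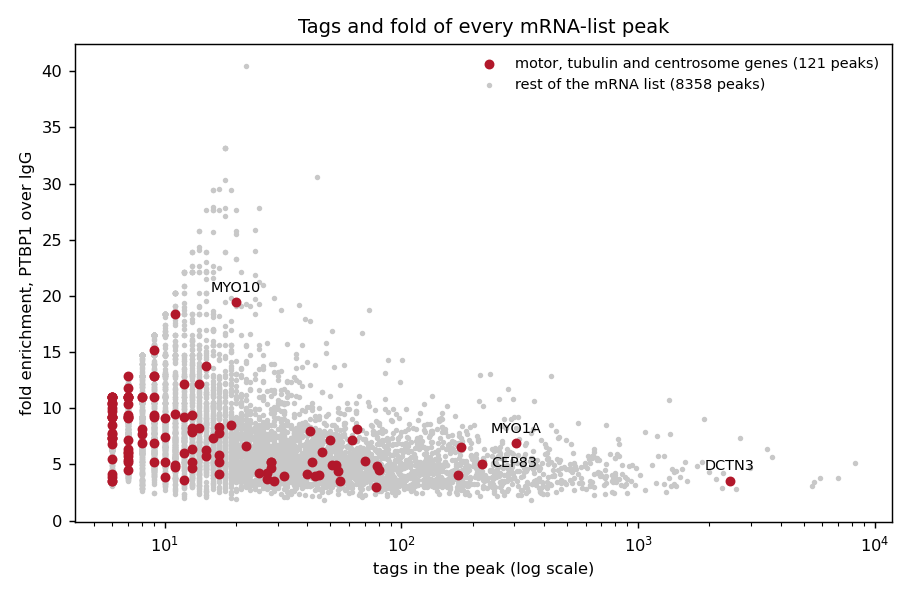
Tags (log scale) against fold enrichment of PTBP1 over IgG for the 121 peaks of motor, tubulin, spectrin and centrosome genes (red) and the rest of the mRNA list (grey), 1 point per peak. Red points above a fold of 10 lie at 20 tags or fewer, and the DCTN3 peak of 2439 tags has a fold of 3.56.

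The peaks with the most tags mostly lay outside the genes they were named for. Of the 5 member peaks with at least 100 tags, 1 overlapped its transcript (20%, 3.62 to 62.4), beside 63.6% of such peaks in the list. At 20 tags or more 16 of 32 overlapped (50%, 33.6 to 66.4), beside 66.7%, and below 20 tags 64 of 89 did (71.9%, 61.8 to 80.2), beside 64.7%. Those 5 peaks were named for DCTN3, MYO1A, CEP83, KIFC1 and KIF1BP, and only that of CEP83 was inside its gene. A false discovery rate of 100% was given to 4 member peaks, those of DCTN3 (2439 tags), MYO1A (305), CEP83 (218) and DYNC2H1 (50).

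Among dyneins and dynactin, DCTN3 encodes the p24 subunit of dynactin, the complex that ties cytoplasmic dynein to its cargo. It had 2 peaks, and neither touched its transcript. The larger one, at chr9:34634633-34636093, held 2439 tags at a fold of 3.56 and lay 14843 bases before the DCTN3 start. It was also named for GALT and IL11RA, and it overlapped no transcript in the lists. In RefSeq order GALT is followed by IL11RA, and which RNA gave these tags was not settled by the annotation. The smaller DCTN3 peak, at chr9:34621287-34621693, was 970 bases before the start and held 7 tags at 11.04-fold. DCTN1, the large subunit that contacts dynein and the microtubule, had 1 exon peak of 14 tags at 8.21-fold. No peak was named for DCTN2, DCTN4, DCTN5 or DCTN6.

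Cytoplasmic dynein had peaks inside each of the 4 genes named, out of 9, beside 17.9% of all protein-coding genes. DYNC1H1, the motor-bearing heavy chain, had 3, an intron peak of 13 tags at 8.20-fold and exon peaks of 12 tags at 3.60-fold and 6 tags at 3.52-fold. The light intermediate chain DYNC1LI2 had an exon peak of 6 tags at 9.99-fold and an intron peak of 12 tags at 9.20-fold. An exon peak of 9 tags at 9.39-fold, 93.1% of the way along the gene, was named for the intermediate chain DYNC1I2. DYNC2H1, the heavy chain of the ciliary dynein, had 1 intron peak of 50 tags at 7.15-fold. DYNC1I1, DYNC1LI1, DYNC2I1, DYNC2I2 and DYNC2LI1 had none. Axonemal heavy chains, which drive the beating of cilia, had peaks named for 3 of 13 genes, beside 25.6% of all protein-coding genes. DNAH17 had intron peaks of 41 tags at 7.94-fold and 6 tags at 10.44-fold and an upstream peak of 7 tags at 5.99-fold, DNAH14 had an exon peak of 6 tags at 10.37-fold, and the peak of DNAH3 (80 tags, 4.54-fold) was intergenic, 20569 bases before the start. The role as a whole had 15 peaks, and best folds ran from 4.54 to 11.04 (median 9.39).

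Peaks were named for 12 of 42 kinesins and 2 of 4 kinesin light chains, beside 25.6% of all protein-coding genes. Their highest fold belonged to KIF26A, a kinesin without motor activity, with an intron peak of 11 tags at 18.40-fold (chr14:104619527-104620013). Its other peaks lay outside the gene, with 6 tags at 4.13-fold before the start and 7 tags at 11.04-fold in an intergenic peak 162655 bases past the start. KIF5B, the ubiquitous heavy chain of conventional kinesin, had 3 peaks inside the gene, 9 tags at 12.88-fold in an intron and 8 tags at 6.87-fold and 17 tags at 4.18-fold in exons. Its partner KLC1, a light chain that binds cargo, had 3 inside the gene too, at 9.13-fold (7 tags), 6.39-fold (13 tags) and 4.77-fold (11 tags). KLC2 had upstream peaks alone (40 tags at 4.14-fold and 29 tags at 3.55-fold), and KLC3 and KLC4 had none. KIF18A, which shortens microtubule ends at metaphase, had exon peaks of 11 tags at 9.53-fold and 7 tags at 5.75-fold and an intron peak of 6 tags at 7.36-fold.

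The spindle kinesins with peaks were mostly described by few tags. KIF14 and KIF20A, both needed for cytokinesis, had 8 tags at 11.04-fold in an intron and 15 tags at 6.27-fold in the promoter class, which the annotation applied within 1999 bases of a start. The KIF20A peak was also named for BRD8. KIF2A had, beside the peak across its start, an intron peak of 7 tags at 11.04-fold. KIF2C, a microtubule depolymerase of the centromere, had 45 tags at 4.10-fold and 42 tags at 5.26-fold, both before its start. The minus-end motor KIFC1 had 178 tags at 6.52-fold in an intergenic peak 25976 bases before the start. KIFC3, another minus-end motor, had upstream peaks of 14 tags at 12.18-fold and 8 tags at 11.04-fold. Its promoter peak of 17 tags at 5.87-fold overlapped the transcript paired with it. Both upstream peaks lay before the start of a shorter transcript, of 24154 bases, but inside the longer one of the promoter peak, of 44809 bases. KIF25 had 1 intron peak of 6 tags at 5.52-fold.

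For a further pair of names most or all peaks lay outside the gene. KIF1C, a vesicle motor, had 4 peaks, and 1, of 6 tags at 7.68-fold, overlapped it and was also named for INCA1. The others were 62 tags at 7.18-fold over CAMTA2, and 9 tags at 6.90-fold and 10 tags at 7.45-fold over INCA1. KIF1BP, a kinesin-binding protein, had upstream peaks of 174 tags at 4.04-fold and 7 tags at 11.79-fold, which overlapped no transcript in the lists. Over the role there were 32 peaks, of which 9 were upstream, 8 intron, 8 promoter, 5 exon and 2 intergenic.

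Myosins had the highest fold of any member and few peaks of their own. MYO10, the motor of filopodium tips, had 3 peaks inside the gene, and its intron peak at chr5:16902393-16902890 (20 tags) reached 19.49-fold. The others were 9 tags at 12.88-fold in an exon and 6 tags at 7.36-fold in an intron. MYO19, a motor on mitochondria, had exon peaks of 6 tags at 11.04-fold and 6 tags at 6.80-fold. Its promoter peak of 11 tags at 4.97-fold was also named for PIGW. MYO6, which walks toward the minus end of actin, had 7 tags at 9.43-fold in an exon. MYO1A, the brush border myosin of the intestine, had 3 upstream peaks, all overlapping the transcript of its neighbour NEMP1, of 305 tags at 6.90-fold (chr12:57449497-57453881), 6 tags at 7.36-fold and 6 tags at 3.91-fold.

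The peaks of MYO1C, MYO1E, MYO5C and MYH15 lay outside these genes as well. MYO1C had 54 tags at 4.45-fold, MYO1E 27 tags at 4.2-fold and 6 tags at 9.20-fold, MYO5C 9 and 6 tags, both at 9.20-fold, and MYH15 7 tags at 5.22-fold and 7 at 4.51-fold. MYH15 was the only one named of 15 class 2 heavy chains, beside 25.6% of all protein-coding genes with a peak. So none of these chains had a peak inside the gene, the nonmuscle chains MYH9, MYH10 and MYH14 included, beside 17.9% of all. With so few genes no trait of the class can be read from this. Of the 25 other myosins 8 had a peak and 4 an overlapping one.

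**Figure D3:**
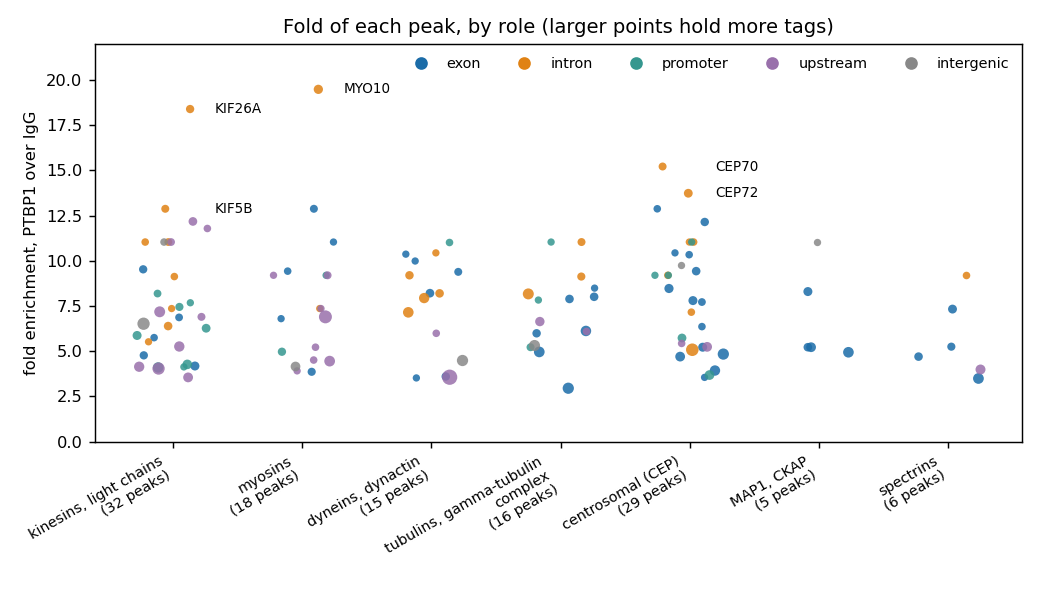
Fold enrichment of PTBP1 over IgG for every member peak, by role. Colour gives the annotation class, larger points hold more tags, and horizontal spread within a role has no meaning. The highest points are intron peaks of MYO10 (19.49), KIF26A (18.40), CEP70 (15.22) and CEP72 (13.74).

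Of the tubulins themselves, a peak was named for 2 of 10 alpha-tubulins, 3 of 10 beta-tubulins, TUBD1 but not TUBE1 and neither gamma-tubulin, beside 25.6% of all protein-coding genes. Among beta-tubulins, TUBB3, best known from neurons, had an exon peak of 53 tags at 4.96-fold, 94.8% of the way along the gene. TUBB4A had an exon peak of 46 tags at 6.12-fold, 88.6% along, and a promoter peak of 6 tags at 11.04-fold, and TUBB6 had 9 tags at 5.22-fold before its start. Of the alpha-tubulins, TUBA1C had 10 tags at 9.13-fold in an intron, and TUBA8 had upstream peaks of 22 tags at 6.64-fold and 7 tags at 6.09-fold. The peak of delta-tubulin, TUBD1, held 6 tags at 7.83-fold and overlapped RPS6KB1. Tubulin genes are close in sequence, and the sources used here do not give how reads that match several copies were treated, so the absence of TUBA1A, TUBA1B, TUBB and TUBB4B is uncertain.

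The gamma-tubulin complex had 3 of 5 genes, each with a peak inside it, beside 17.9% of all protein-coding genes. TUBGCP3, a core subunit, had 4, of 9 tags at 11.04-fold and 65 tags at 8.17-fold in introns and 13 tags at 8.01-fold and 12 tags at 5.99-fold in exons. TUBGCP4 had 13 tags at 7.89-fold in an exon, 78 tags at 2.95-fold at 97.9% of its length, and an intergenic peak of 70 tags at 5.33-fold just past its end. The peak of 78 tags also ran past that end. In RefSeq order TUBGCP4 is followed by TP53BP1, and which RNA gave the tags there was not settled by the annotation. TUBGCP5 had 6 tags at 8.49-fold in an exon. TUBGCP2 and TUBGCP6 had none.

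Centrosomal genes had 29 peaks in 15 members, 14 of them in exons, and the median of their best folds was 10.34. CEP350, a large protein that anchors microtubules at the centrosome, had the most peaks of any member, with 8, all inside the gene and 7 of them in exons. They held 6 to 28 tags each and 113 in all, had folds of 3.55 to 12.88, and lay 19.4% to 88.1% along the gene. CEP170, of the subdistal appendages of the mother centriole, had exon peaks of 79 tags at 4.84-fold, 43 tags at 3.93-fold and 12 tags at 12.15-fold. CEP83, which anchors the distal appendages, had an intron peak of 218 tags at 5.08-fold (chr12:94817276-94818836). The highest folds were in introns of CEP70 (9 tags, 15.22-fold) and CEP72 (15 tags, 13.74-fold), both of which help to organise the centrosome's microtubules. CEP70 also had 6 tags at 9.20-fold before its start, and CEP72 had 7 tags at 6.36-fold in an exon.

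Duplication factors of the centriole were among the members with a single peak of few tags. CEP152, the scaffold for the kinase PLK4, had 7 tags at 11.04-fold and CEP192, which recruits the pericentriolar matrix, had 7 tags at 9.20-fold, both in introns. CEP162, which is linked to cilia, had an exon peak of 7 tags at 10.34-fold. CEP78 had 8 tags at 7.72-fold in an exon and 6 tags at 9.79-fold in an intergenic peak, and CEP97, which caps the centriole, had 6 tags at 9.20-fold in the promoter class. Besides the peak across its start, CEP126 had an intron peak of 7 tags at 7.16-fold. CEP290, a gatekeeper of the cilium, had 28 tags at 5.24-fold and 15 tags at 5.73-fold, both overlapping the neighbouring TMTC3. CEP57 (7 tags, 5.43-fold) and CEP85 (6 tags, 11.04-fold) had only peaks before the starts of the transcripts paired with them. For CEP85 that transcript spanned 9529 bases, and whether a longer isoform covers the peak was not looked at.

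MAP1B, a microtubule-associated protein known from axons, had a run of 4 exon peaks between 66.5% and 97.7% of the gene. These held 51, 28, 17 and 13 tags at 4.94-, 5.22-, 8.30- and 5.22-fold in the order of the gene, and another peak past the gene's end held 6 tags at 11.04-fold. MAP1A, MAP1S and the 4 CKAP genes had none. Of the spectrins, the beta chain SPTBN1 had exon peaks of 55 tags at 3.49-fold and 16 tags at 7.33-fold and an intron peak of 7 tags at 9.20-fold, and the alpha chain SPTAN1 had exon peaks of 13 tags at 4.70-fold and 10 tags at 5.25-fold. SPTBN5 had an upstream peak of 32 tags at 3.99-fold. SPTB and SPTBN4 had none.

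Where along the genes the peaks lay was compared next. Exon peaks were 45 of the 121 (37.2%, 29.1 to 46.1), against 32.4% of all peaks (31.4 to 33.4), and intron peaks 26 (21.5%, 15.1 to 29.6), against 15.1% (14.4 to 15.9). Promoter peaks were 19 (15.7%, 10.3 to 23.2), against 20.9%, and upstream peaks 24 (19.8%, 13.7 to 27.8), against 16.4%. Intergenic peaks were 7 (5.79%, 2.83 to 11.5), against 15.2% (14.5 to 16.0), the only class of the 5 in which the intervals did not overlap. Median folds of member peaks were 9.20 in introns, 7.45 in promoters, 6.80 in exons, 6.52 in intergenic and 5.71 in upstream peaks. Exon peaks in the last 10% of the gene's length were 9 of 45 (20%, 10.9 to 33.8), against 35.1% of all exon peaks (33.4 to 36.9), and the 10% before it held another 9 (20%), against 12.7%. In the 11 members with at least 3 overlapping peaks, these peaks were spread over the gene in CEP350 and MYO10 and all lay beyond 66.5% of the gene's length in MAP1B.

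**Figure D4:**
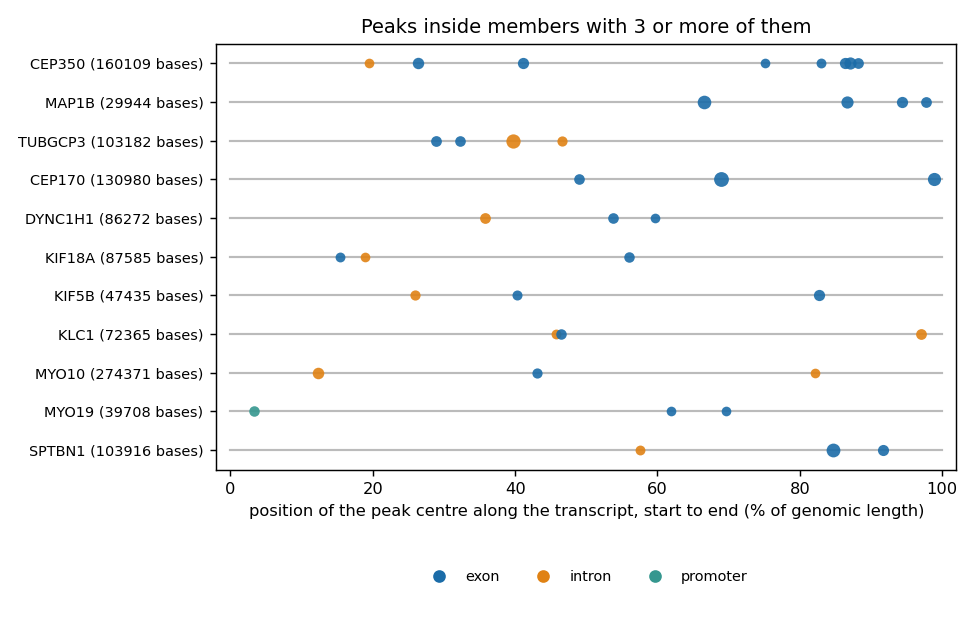
Position of each overlapping peak along its gene, from transcript start (0%) to end (100% of genomic length), in the 11 members with at least 3 such peaks, 1 row per gene. Colour gives the annotation class and larger points hold more tags. CEP350 has 8 peaks between 19.4% and 88.1%, and the 4 of MAP1B lie between 66.5% and 97.7%.

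Partners of these families, which the symbol rule does not take, were read from 7 lists, drawn up with earlier results of these data known. Of all protein-coding genes, 25.6% had a peak and 17.9% an overlapping one. A peak was named for 15 of 25 dynein and dynactin partners (60%, 40.7 to 76.6), 11 with an overlapping peak, led by ACTR1A, the filament subunit of dynactin (18.40-fold, before its start), NINL, an adaptor at the centrosome (14.72-fold), and the light chain DYNLL2 (11.56-fold), none of them with the leading peak inside the gene. Kinesin adaptors had 6 of 10 (60%, 31.3 to 83.2), 4 with overlap, with FEZ2 at 16.91-fold, KIFBP, already counted as KIF1BP, at 11.79-fold and the scaffold MAPK8IP1 at 7.83-fold. The KIFBP and MAPK8IP1 peaks lay before the start and outside the gene. Centrosome and centriole genes without a CEP symbol had 14 of 28 (50%, 32.6 to 67.4), 13 with an overlapping peak, led by POC5 of the centriole wall (22.62-fold), SASS6 of the cartwheel that starts a new centriole (17.40-fold) and CNTROB (14.72-fold). Spectrin skeleton partners had 7 of 13 (53.8%, 29.1 to 76.8), all 7 with overlap, led by the band 4.1 proteins EPB41L1 (16.54-fold), EPB41L3 (14.72-fold) and EPB41L2 (9.74-fold).

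Shares nearer to the 25.6% of all protein-coding genes were found in the remaining 3 lists. Tubulin folding and modification genes had 8 of 24 (33.3%, 18.0 to 53.3), all 8 with overlap. The highest folds were TTLL12 at 13.05-fold, the folding cofactor TBCD at 11.04-fold and the polyglutamylase TTLL4 at 7.36-fold. These peaks of TBCD and TTLL4 lay before the start and outside the gene, and other peaks gave their overlap. Microtubule binding genes had 9 of 30 (30%, 16.7 to 47.9), 7 with overlap, with the linker DST at 14.72-fold, MAP2 at 14.54-fold and the spindle factor TPX2 at 11.14-fold. This DST peak lay before the start of the transcript paired with it, and whether a longer DST isoform covers it was not looked at. Myosin light chains and regulators had 5 of 17 (29.4%, 13.3 to 53.1), 2 with overlap, with the myosin chaperone UNC45A at 16.31-fold and the kinase ROCK1 at 11.04-fold, neither inside the gene, and the phosphatase subunit PPP1R12B at 7.33-fold. Medians of the best fold in the 7 lists ran from 6.65 (tubulin folding and modification) to 9.68 (microtubule binding), beside 7.96 over the mRNA list.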

How the data were processed

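RIP-seq was done in MKN-28 cells with a PTBP1 antibody or normal rabbit IgG, and ribosomal RNA was removed before sequencing (1 library each). The submitters' processing notes name cutadapt (1.9.3), Bowtie2 (2.2.4) and hg19. The peak caller, the library's strand and the treatment of multiply mapped reads are not given in the sources used here. In the deposited tables the authors gave peaks of PTBP1 over IgG paired with RefSeq transcripts, in a full and a promoter table for mRNA and for lncRNA, and the 4328 rows of the mRNA promoter table repeated rows of the full table.

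The authors gave the whole count of tags inside each peak, the fold over IgG as a ratio, the p-value as a score (negative log10 of p multiplied by 10, lowest 30) and the false discovery rate as a percent. Folds of peaks with few tags depend strongly on single tags, and depth per library is unknown.

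Each peak was counted once per gene. Overlap was sharing of at least 1 base with a transcript listed for the gene at that same peak. Other isoforms of the gene were not looked at, so a peak counted as outside can lie inside a longer isoform. Both upstream peaks of KIFC3 did. Only transcripts of other genes in the lists were looked at for neighbours. Position was the distance to the start over the genomic length, in 10 parts. Genes said to have no peak had none named for them. RefSeq GRCh38.p14 gave names, gene classes, promoters and gene order only, and 5122 of 5186 symbols matched by accession. Members and lists were chosen with earlier results of these data known. Every member could be named, though a few are not reported here. Described in full were DCTN3, in each role up to 4 members with the highest fold and 2 with the most tags, the 5 with the most peaks, members without a peak in small groups, and up to 3 leading genes of each partner list. Alternatives were other thresholds of fold, p score and tags, leaving out promoter peaks or CEP genes, merged peaks, unchanged symbols, a stricter overlap, the mean fold, a wider last part of the gene and only overlapping genes. Overlap and intervals were tested on simulated data. The tools were scipy (1.17.1), numpy (2.4.6), pandas (2.3.3) and matplotlib (3.10.9) under Python (3.11.15).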

Additional observations from a re-analysis of the deposited data

Results flagged for a closer look

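Both results below come from the lncRNA list, which the comparisons above do not use, and were taken because an antisense RNA of a member's family had a peak over IgG there. DNAH17-AS1, an RNA antisense to the axonemal dynein gene DNAH17, had a promoter peak of 166 tags at 5.01-fold that overlapped its transcript (chr17:76480419-76483084). It lies between the intron peaks of DNAH17, and since the peaks carry no strand, tags of the gene and of its antisense RNA cannot be told apart. MYO16-AS1, an RNA antisense to the myosin gene MYO16, which itself had no peak, was the name given to a peak of 6518 tags at 10.12-fold with a false discovery rate of 100% (chr13:109917431-109923625). That peak lay 100877 bases before the MYO16-AS1 start and did not overlap it. Neither peak was named in the mRNA list.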

How the results depend on the processing

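Of 50 values recomputed for 8 results under 12 settings, 29 stayed within the main value's interval (for counts, within 1.5 times) and 21 did not. Within these limits the members went to 43 with overlap asked for. The share of exon peaks in the last 10% of the gene was 33.3% of 9 with at least 20 tags (49.8% over the list). At p scores from 50 up it was 28.6% (33.2% over the list). With a fold of at least 10, 22 members and 26 peaks passed. The family shares became 11.2% (any peak, beside 8.43% of all protein-coding genes) and 9.18% (overlapping). The median best fold was 11.04 (12.18 over the list) and the exon share 26.9% (29.3% over the list). The share of exon peaks in the last 10% of the gene was 0% (23.5% over the list). Few of these 26 peaks were exon peaks, so this 0% rests on few peaks. At p scores from 50 up, 35 members and 44 peaks passed, with family shares of 17.9% (13.9% of all genes) and 13.8%. The exon share there was 47.7% (36.1% over the list). With at least 20 tags, 27 members and 32 peaks passed, with family shares of 13.3% (12.1% of all genes) and 7.14%. Of these members 51.9% had an overlapping peak (67.9% over the list). The median best fold was 5.08 (5.39 over the list) and the exon share 28.1% (34.6% over the list). The family share with an overlapping peak was above that of all genes at a fold of at least 10 (5.51%) and a p score of at least 50 (9.18%), and below it at 20 tags (8.24%). The mean in place of the best fold gave 7.60, and the last 20% of the gene held 40% of exon peaks. Fewer peaks enter under each threshold. The split by protein length was not run. With 1 library per antibody, no paired analysis was possible because there are no replicate numbers, and differences between the libraries in depth or antibody background cannot be told apart from binding.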
